A study of Mus musculus with 2 samples.

Results

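Ly6 surface proteins and uroplakins were followed in YTN16, a mouse gastric cancer cell line, by 9 genes chosen by name: Ly6a, Ly6c1, Ly6d, Ly6e, Psca, Upk1a, Upk1b, Upk2 and Upk3b. All 9 were found among the 45777 genes of the table. The study sequenced messenger RNA from 2 libraries of this line, with 1 library per group. The shControl library came from cells with a control short hairpin RNA, labelled wild type, and the shGas6 library from cells in which a hairpin had reduced Gas6, the secreted ligand of the AXL, MERTK and TYRO3 receptor kinases. The stated purpose was the role of GAS6 and AXL signalling in the response to immunotherapy. Whether the cells of either group were a clone or a pool is not stated. The 9 genes were picked with their values in this same comparison known, so their counts and folds are a description and carry no test.

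Ly6 proteins are small surface proteins built on the LU domain, a compact fold held by disulphide bonds, and most of them are held in the outer membrane by a GPI lipid anchor. Many of their genes lie side by side on mouse chromosome 15. Ly6a (Sca-1) marks mouse stem and progenitor cells and activated lymphocytes and is inducible by interferon, Ly6c1 marks endothelial and some lymphoid cells, Ly6e restricts or aids the entry of several viruses, Ly6d is found on stratified epithelium and early B-lineage cells, and Psca is found on stomach, bladder and prostate epithelium. Uroplakins are membrane proteins of the urothelium, where they pack into plaques on the surface facing the urine. In those plaques Upk1a, a tetraspanin, pairs with Upk2, while Upk1b, the other tetraspanin, pairs with a protein of the Upk3 group. Upk1b and Upk3b are also made by mesothelium, the lining of body cavities.

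The libraries held 50756676 counts (shControl) and 51807140 counts (shGas6). Levels are given as CPM (counts scaled to a common library size with TMM factors) and as the TPM the authors deposited, which also divides by transcript length and is used here to set genes side by side. The 13367 genes that reached 1 CPM in either library are called measured, and genes are called higher or lower by size alone, from 2-fold upwards. Brackets after a fold hold its 95% exact binomial interval, which covers counting error only and says nothing of variation between cultures. With no replicates, no p-value was possible. The hairpin's target Gas6 stood at 48.8 CPM with the control hairpin and 14.1 CPM with the Gas6 hairpin, 3.45-fold lower (3.18 to 3.75). Of 10 epithelial genes that check the labelled cell type, 9 were measured, and their median log2 ratio was 0.50. The keratin gene Krt18 was at 424 and 1016 CPM, E-cadherin (Cdh1) at 112 and 218 CPM, and the stomach and gut transcription factors Gata4 and Gata6 at 115 and 195 CPM and at 12.9 and 4.68 CPM. Of the 9, Krt18 was past 2-fold upwards and Gata6 downwards, beside 8.64% of all measured genes upwards and 6.19% downwards. Epcam, a pan-epithelial adhesion protein, was nearly absent, at 0.629 and 0.503 CPM.

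Upstream sequence of the genes was taken from RefSeq (GRCm38.p6), whose table held a promoter for 3 of the 9, Ly6c1, Upk3b and Upk1a. Its windows cover the 250 bases before a listed start, and for Ly6c1 and its close copy Ly6c2 the last 83 and 95 of these lie inside the annotated gene and are not shown. The remaining upstream bases are shown for Ly6c1 (minus strand, chr15:75048921-75049087) and for Ly6c2 (minus strand, chr15:75112067-75112221), because these adjacent genes were higher in shGas6 by similar folds. Capitals mark bases that differ between both sequences or have no partner in their alignment. Of 134 aligned bases, 99 were identical (73.9%).
Ly6c1: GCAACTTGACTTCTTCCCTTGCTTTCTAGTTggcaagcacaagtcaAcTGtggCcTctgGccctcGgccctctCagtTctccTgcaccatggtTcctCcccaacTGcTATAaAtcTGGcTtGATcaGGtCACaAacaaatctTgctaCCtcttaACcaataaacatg
Ly6c2: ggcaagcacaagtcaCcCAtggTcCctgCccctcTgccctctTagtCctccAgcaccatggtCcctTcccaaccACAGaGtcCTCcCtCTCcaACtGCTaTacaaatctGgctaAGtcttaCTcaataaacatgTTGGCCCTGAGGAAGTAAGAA
For the uroplakins, all 250 bases are shown for Upk3b (plus strand, chr5:136038246-136038495), listed at 0 in shControl and detected in shGas6, and for Upk1a (minus strand, chr7:30612735-30612984), whose fold interval included 1. No letters are in capitals in this pair.
Upk3b: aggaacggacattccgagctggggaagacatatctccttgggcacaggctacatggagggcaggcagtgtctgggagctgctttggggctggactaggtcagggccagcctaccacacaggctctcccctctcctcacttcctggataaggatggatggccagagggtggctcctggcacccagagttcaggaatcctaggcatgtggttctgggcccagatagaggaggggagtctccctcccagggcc
Upk1a: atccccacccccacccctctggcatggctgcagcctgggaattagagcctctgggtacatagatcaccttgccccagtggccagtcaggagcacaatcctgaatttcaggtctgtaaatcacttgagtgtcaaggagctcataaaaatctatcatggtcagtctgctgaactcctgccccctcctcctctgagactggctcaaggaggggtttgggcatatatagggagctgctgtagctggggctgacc
Both strands of the 250-base windows of these 4 genes were searched for the interferon gamma motif TTCNNNGAA, the type I interferon motif ISRE, the AP-1 motif TGANTCA and the Grainyhead motif AACNNGTT. They are found in 7.18%, 3.04%, 6.87% and 3.63% of 27025 promoters of the same length. The sole match was the Grainyhead motif in Ly6c2, and the absence of a match says only that these letters are not in these windows.

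Ly6a, Ly6e and Ly6c1 were abundant in both libraries and were each a little over 2-fold higher in shGas6. Ly6a was counted 30058 times in shControl and 62794 times in shGas6. On the CPM scale that was 591 and 1214, a fold of 2.05 (2.03 to 2.08). Ly6a stood close to the 2-fold mark, and its log2 ratio of 1.04 was 0.997, under that mark, with upper quartile scaling. Ly6e had 36109 and 90284 counts, or 710.2 and 1746 CPM, a fold of 2.46 (2.43 to 2.49). Ly6c1 had 7777 and 20531 counts, or 153 and 397 CPM, a fold of 2.60 (2.53 to 2.66). In a culture, a larger share of cells that make these transcripts and more transcript per cell cannot be told apart.

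These folds amounted to large quantities of transcript. Ly6e gained 1035 CPM, the fourth largest gain of all measured genes, and Ly6a gained 623 CPM, at rank 14. Ly6c1 gained 244 CPM, at rank 60. By deposited TPM, Ly6a moved from rank 115 of all genes in shControl (1220 TPM) to rank 36 in shGas6 (2594 TPM). Ly6e moved from rank 218 (669 TPM) to rank 66 (1663 TPM), and Ly6c1 from rank 432 (349.8 TPM) to rank 151 (946 TPM). Ranked instead by fold, their places were lower, with Ly6c1 at 749, Ly6e at 828 and Ly6a at 1104 of 13367. Together the 9 genes took 0.146% of all counts in shControl and 0.339% in shGas6. Ly6a, Ly6c1 and Ly6e supplied 99.9% of those counts in shControl and 98.8% in shGas6.

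Ly6d and Psca, the Ly6 genes linked to epithelial surfaces, were both under 1 CPM in shControl. Ly6d was counted 37 times in shControl and 1435 times in shGas6. This corresponds to 0.728 and 27.7 CPM, a fold of 38.1 (27.5 to 54.4), at rank 50 of the measured genes by log2 ratio. Psca had no count in shControl and 49 counts in shGas6, or 0.947 CPM, just under the 1 CPM mark. Against a floor of 3 counts, which is 0.0590 CPM in shControl, Psca was at least 16.1-fold higher. A count of 0 sets only an upper limit on the level of Psca in shControl and does not show that it was absent.

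**Figure D1:**
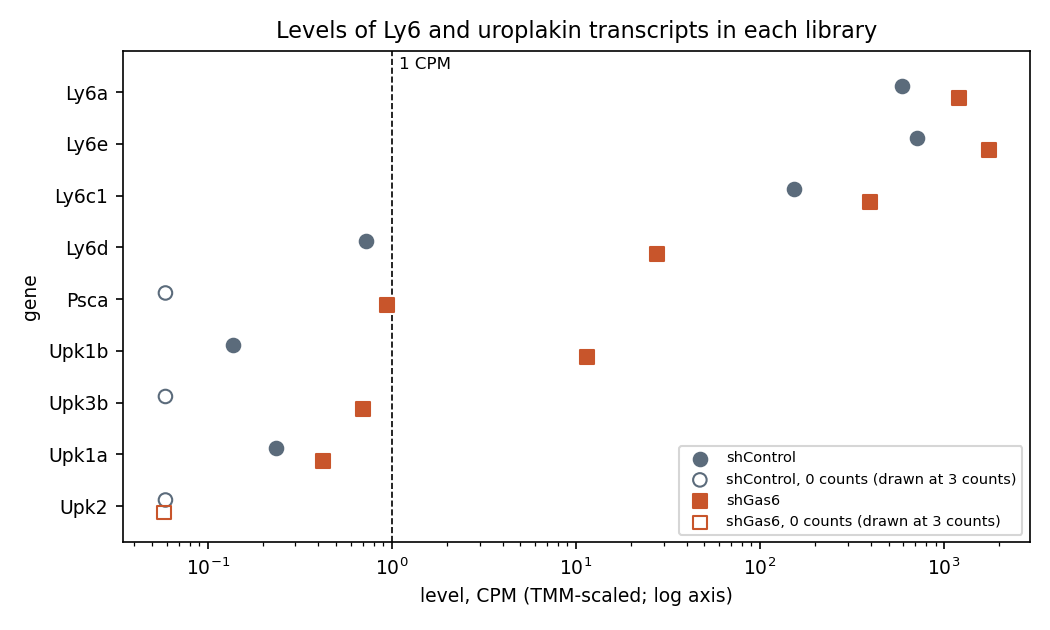
Level of each gene in CPM (log axis) in the shControl (circles) and shGas6 (squares) libraries, with open symbols for 0 counts drawn at the 3-count floor. Ly6a, Ly6e and Ly6c1 lie above 100 CPM in both libraries, and Ly6d and Upk1b cross the dashed 1 CPM line from below in shControl to above in shGas6.

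Among the uroplakins, Upk1b differed most. It was counted 7 times in shControl and 598 times in shGas6, or 0.138 and 11.6 CPM, which gave a fold of 84.0 (40.5 to 209.8) and rank 34 of the measured genes by log2 ratio. The width of that interval reflects the 7 counts in shControl. Upk3b had 0 and 36 counts, or 0.696 CPM in shGas6, at least 11.8-fold higher. Upk1a had 12 and 22 counts, or 0.236 and 0.425 CPM, a fold of 1.80 whose interval ran from 0.854 to 3.995 and included 1. Upk2 had 0 counts in both libraries, so it has no fold, and its level was at most 0.0590 CPM in shControl and 0.0580 CPM in shGas6 at this depth.

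The uroplakin genes therefore did not appear as a set. In shGas6, Upk1b stood at 13.4 TPM, Upk3b at 0.698 TPM and Upk1a at 0.651 TPM. Upk3b and Upk1a rest on 36 and 22 counts there, and their order was not tested. In shControl, Upk1a stood at 0.353 TPM and Upk1b at 0.139 TPM. These values rest on 12 and 7 counts, and their order was not tested either. Upk3a, the usual plaque partner of Upk1b, had 0 and 4 counts. Upk3bl, a uroplakin-like gene next to Upk3b, was measured in both libraries, at 8.52 and 13.1 CPM, a fold of 1.54 (1.36 to 1.74). Neither Upk1a with Upk2 nor Upk1b with Upk3a or Upk3b reached 1 CPM together in either library.

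Of the 9 genes, 5 were measured (Ly6a, Ly6c1, Ly6d, Ly6e and Upk1b), and those 5 were at least 2-fold higher in shGas6. Of all measured genes, 8.64% were higher and 6.19% lower by that much, and nothing is read from the contrast of these shares because the genes were chosen on it. At 4-fold or more the count was 2 (Ly6d and Upk1b), with 3.16% of all measured genes that much higher. Both were under 1 CPM in shControl and were measured through shGas6 alone, so nothing is read from that count either. The other 4 genes stayed under 1 CPM in both libraries. When all genes with 1 count or more were taken in, Psca and Upk3b joined for a count of 7, where 18.6% of 22544 such genes were at least 2-fold higher. Psca and Upk3b had 0 counts in shControl and entered through shGas6 alone. Upk1a missed the 2-fold mark and Upk2 had no counts.

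Most measured Ly6 genes that the choice had not named were also higher. The other LU domain genes of the chromosome 15 cluster numbered 18, of which 8 were measured, 6 at least 2-fold higher and none 2-fold lower. Of all measured genes, 8.64% were higher and 6.19% lower by that much. The median log2 ratio of the 8 was 1.27, where that of all measured genes was -0.01. Ly6m, Ly6g2 and Lypd2 were under 1 CPM in shControl and were measured through shGas6 alone. The list was also written with earlier results of these data known, so nothing is read from the contrast of these shares. Ly6m, with 17 and 331 counts, had a fold of 19.1 (11.8 to 33.3). Slurp1, a secreted LU protein of skin and other stratified epithelia, had 209 and 1812 counts, a fold of 8.52 (7.38 to 9.88). Lynx1, a GPI-anchored modulator of nicotinic acetylcholine receptors, was at 35.6 and 90.1 CPM, a fold of 2.53 (2.40 to 2.67).

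The remaining cluster genes were expressed at low levels. Ly6c2, a marker of monocytes and the near-copy of Ly6c1, was at 9.26 and 21.3 CPM, a fold of 2.30 (2.06 to 2.57). Ly6g2 was at 0.924 and 2.997 CPM, a fold of 3.24 (2.33 to 4.59). Lypd2 was at 0.452 and 1.01 CPM, a fold of 2.22 whose interval (1.34 to 3.80) reached below 2. Ly6g, a marker of neutrophils, was at 2.54 and 4.29 CPM, a fold of 1.69 (1.36 to 2.12). Ly6i was nearly level, at 1.73 and 1.89 CPM, a fold of 1.09 (0.812 to 1.48). The other 10 lay under 1 CPM, and 6 of the 18 had no counts in shControl. Gpihbp1, an LU protein of capillary endothelium, had 0 counts in both libraries.

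LU domain genes elsewhere in the genome were split. Among 25 of them, 8 were measured, with 3 higher and 1 lower past 2-fold, and the median log2 ratio was 0.41. Of all measured genes, 8.64% were higher and 6.19% lower by that much. The 3 higher genes, Lypd8, Cd177 and Ly6g6d, were under 1 CPM in shControl and were measured through shGas6 alone, so nothing is read from these shares. With all such genes of 1 count or more the median was 2.18. That value falls among genes with few counts, such as Ly6g6c with 0 and 3, whose ratios depend on the pseudocount. Lypd8, an anti-bacterial protein of the colon surface, had 0 and 123 counts, at least 40.3-fold higher. Cd177, a neutrophil surface protein, had 0 and 62 counts, at least 20.3-fold higher. Ly6g6d had 8 and 97 counts, a fold of 11.9 (5.81 to 28.4). Lypd1, a brain-enriched modulator of nicotinic receptors, had 103 and 10 counts, 10.5-fold lower (5.47 to 22.5). Plaur, the urokinase receptor and the most abundant of these 8, was at 138 and 180 CPM (7002 and 9284 counts), a fold of 1.30 (1.26 to 1.34). Lypd6b, Ly6g5b and Pate2 had folds of 0.966, 1.06 and 1.37, and each interval included 1. Cd59a and Cd59b, inhibitors of complement, and Lypd3 had 0 counts in both libraries.

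**Figure D2:**
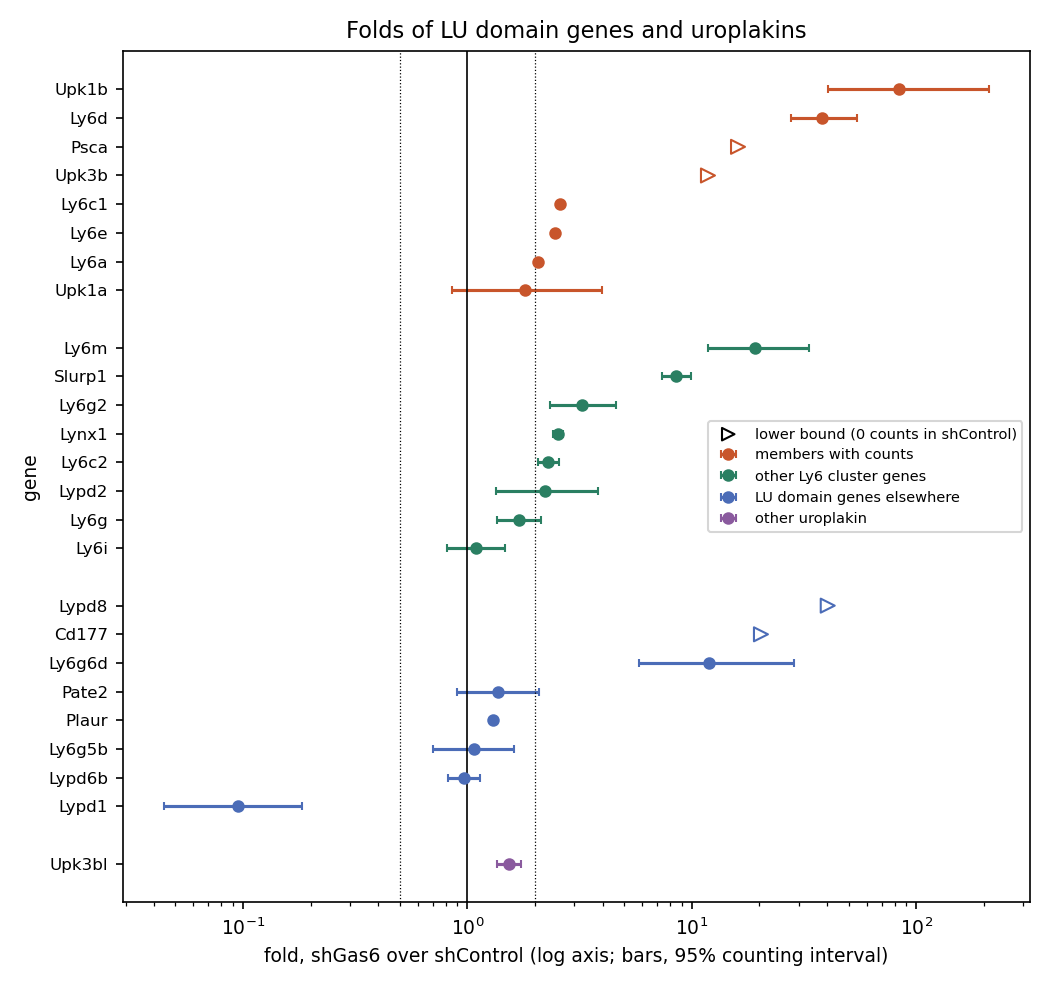
Fold of shGas6 over shControl (log axis) with 95% counting intervals for the members with counts, the other measured genes of the Ly6 cluster, measured LU domain genes elsewhere and Upk3bl. Arrowheads are lower bounds for genes with 0 counts in shControl, dotted lines mark 2-fold in either direction, and the 8 other Ly6 cluster genes lie at or above 1, whereas Lypd1 lies below 0.5.

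The Ly6 genes lie together on chromosome 15, so the surrounding genes were read as well. The segment from Psca to Gpihbp1 spans 883 kb, with Psca at 74714839 to 74717065, Ly6d at 74762056 to 74763567, Ly6e at 74955025 to 74959904, Ly6a at 74994877 to 74998031 and Ly6c1 at 75044018 to 75048920 (GRCm38). It held 16 measured genes, of which 13 passed 2-fold upwards. Of the measured genes of chromosome 15, 15% did so, and of all measured genes 8.64%. Ly6d, Ly6e, Ly6a and Ly6c1 are in both counts and were chosen with their values known. Without members, 6 of 8 LU domain genes passed. Ly6d, Ly6m, Ly6g2, Lypd2, Gm6610 and Gm33124 were under 1 CPM in shControl and were measured through shGas6 alone. Nothing is therefore read from the contrast of these shares. All 16 log2 ratios were above 0, with the exception that Ly6i was slightly lower by deposited TPM (3.34 and 3.30) and FPKM (1.51 and 1.45), and the median was 1.32. Within 500 kb of the 5 Ly6 members lay the same 13 other measured genes, 9 of them higher, with a median of 1.20. Within 1000 kb the median was 0.69 around Ly6a and 0.72 around Ly6c1, and within 200 kb it was 1.78 and 1.69. Of the 16 genes in the segment, 4 were not LU domain genes, and 3 of those 4 were at least 2-fold higher. Them6, an endoplasmic reticulum protein gene 4.17 kb from Psca, was at 37.4 and 82.5 CPM, a fold of 2.21 (2.09 to 2.33). Gm41348, a long non-coding RNA 0.43 kb from Ly6a, was at 1.51 and 7.79 CPM, a fold of 5.14 (4.02 to 6.65). Gm6610, a pseudogene 29.1 kb from Ly6e, was at 0.531 and 5.18 CPM, a fold of 9.76 (6.56 to 15.1).

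Outside that segment the median ratios were smaller, though single genes differed by larger folds than Ly6a, Ly6e or Ly6c1. In the 1 Mb before Psca, 4 genes were measured and none was 2-fold higher, with a median of -0.16. The nearest of them, Jrk, 5.52 kb from Psca, was at 12.2 and 22.4 CPM, a fold of 1.83 (1.66 to 2.02). In the 1 Mb after Gpihbp1, 6 of 42 measured genes passed 2-fold upwards and none downwards, with a median of 0.23. The largest folds there were those of Nrbp2, at 10.6 (8.42 to 13.5), and Iqank1, at 6.84 (4.36 to 11.2). The rest of chromosome 15 was itself shifted, with a median of 0.24 over 517 genes. Over the whole chromosome 71.5% of 533 measured genes had a ratio above 0, against 49.1% of all measured genes, and 15% were at least 2-fold higher, 5.44% at least 4-fold. After the median of its own chromosome was subtracted from each gene, Ly6a was at 0.78, Ly6e at 1.04 and Ly6c1 at 1.12 on the log2 scale, and the Ly6d value was 4.98. The part of a chromosome-wide difference in these ratios was not tested.

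**Figure D3:**
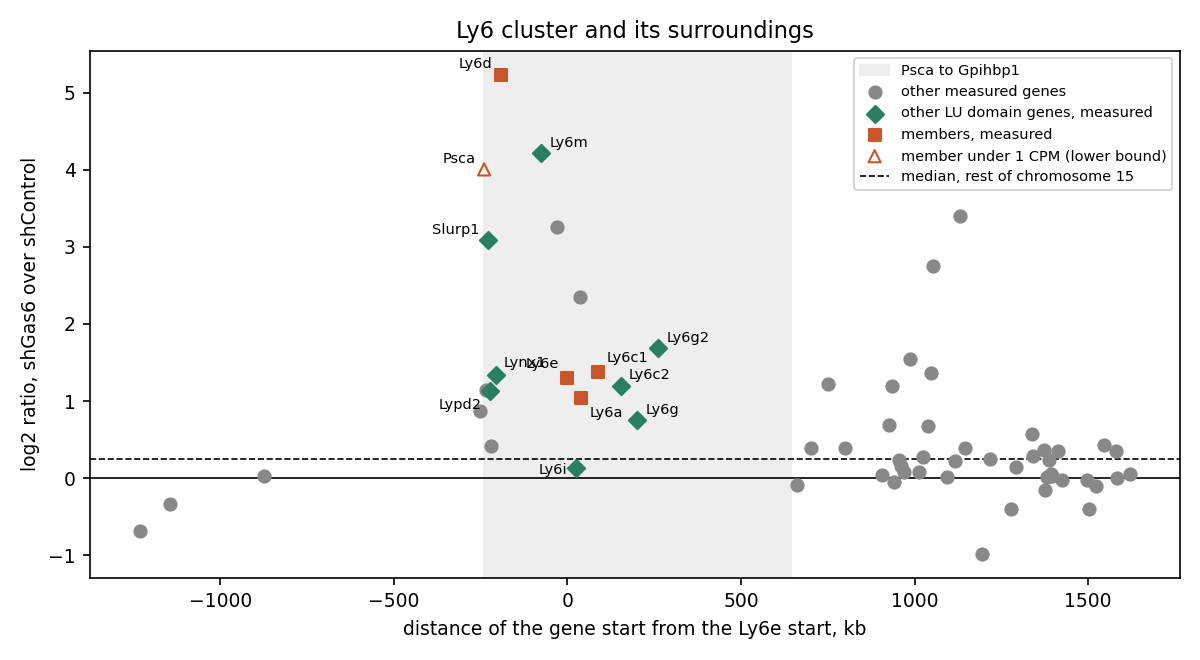
Log2 ratio of shGas6 over shControl of the measured genes on chromosome 15 within 1 Mb of the Ly6 cluster, by distance in kb of the gene start from that of Ly6e, with the cluster from Psca to Gpihbp1 shaded. The 16 measured genes in the shaded segment lie above 0, the dashed line is the median of 0.24 of the rest of the chromosome, and the open triangle is the lower bound for Psca, which was under 1 CPM.

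Members on other chromosomes had neighbourhoods of different kinds. Upk1b (chromosome 16, 38773182 to 38800203) lies 4.13 kb from B4galt4, a galactosyltransferase gene with 15 and 696 counts, a fold of 45.6 (27.5 to 81.9). On its other side, 92.3 kb away, the adhesion gene Igsf11 was at 21.7 and 89.7 CPM, a fold of 4.14 (3.87 to 4.42). Within 500 kb of Upk1b, 4 of 11 measured genes passed 2-fold upwards and 1 downwards, and their median was -0.04. Within 200 kb, 3 of 4 were at least 2-fold higher and the median was 2.56. The shares over all measured genes were 8.64% higher and 6.19% lower. B4galt4 was at 0.295 CPM in shControl and was measured through shGas6 alone, so nothing is read from these counts.

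Around Upk3b (chromosome 5, 136038496 to 136044993), 17 of 20 measured genes within 500 kb had positive log2 ratios (median 0.50), whereas chromosome 5 as a whole had a median of -0.18. Positive ratios were found in 49.1% of all measured genes, and the contrast was not tested. Dtx2, 5.62 kb from Upk3b, was 1.68-fold higher (1.56 to 1.80). Around Upk1a (chromosome 7, 30603092 to 30612734) the median of 33 genes was -0.0047, and around Upk2 (chromosome 9, 44452715 to 44454767) that of 28 genes was 0.03. The neighbours of Upk1a, Zbtb32 and Cox6b1, had folds of 1.46 (1.02 to 2.10) and 0.845 (0.816 to 0.875). Those of Upk2, Ccdc84 and Gm9830, had folds of 1.38 (1.24 to 1.54) and 0.944 (0.823 to 1.08).

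Ly6 genes resemble each other, which limits how finely their counts can be divided. In GENCODE M21 transcripts, 10.1% of the distinct 100-base windows of Ly6c1 also occur in another gene, mostly in Ly6c2, and 1.45% of those of Ly6a occur in Ly6c1. At 50 bases the shares were 32.8% for Ly6c1 and 18.97% for Ly6a. Ly6d, Ly6e, Psca and the 4 uroplakins shared no window of either length with any other gene. The coding sequences of Ly6c1 and Ly6c2 were 93.8% identical over 389 aligned bases, those of Ly6a and Ly6i 86.4% over 405 and those of Ly6a and Ly6c1 78.1% over 392. Ly6i was the measured cluster gene whose ratio was nearest to 1. Slurp1 shared 7.67% of its 100-base windows with Them6, whose end it overlaps on the opposite strand in that annotation, and no source used here says whether the authors' counting used strand.

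Genes that Ly6 transcripts accompany in other settings differed in both directions. Both lists read here were written with earlier results of these data known. Past 2-fold, 8.64% of all measured genes were higher and 6.19% lower, and nothing is read from the contrast of these shares. All 26 listed interferon response genes were measured, and in shGas6 9 of them were lower past 2-fold and none higher. The median was -0.74, and 23 ratios were below 0. The 3 above 0 were Irf9, 1.48-fold higher (1.41 to 1.55), Irf1, 1.30-fold (1.24 to 1.37), and Mx1, 1.23-fold (1.05 to 1.44). Trim30a was 59.8-fold lower (38.5 to 98.2), Gbp2 7.74-fold (6.14 to 9.87), Oas1a 4.51-fold (4.28 to 4.75) and Rsad2 4.26-fold lower (2.78 to 6.74). Trim30a and Rsad2 were under 1 CPM in shGas6 and were measured through shControl alone. Interferon can also induce Ly6a and Ly6e, which were higher in shGas6, and its part in any of these ratios was not tested. Of 10 genes of fetal-like or regenerating gut epithelium, a state that Ly6a marks, 9 were measured. Past 2-fold, 3 were higher and 2 lower, and the median was -0.30. In that list the secreted phosphoprotein Spp1 was at 2589 and 815 CPM, 3.18-fold lower (3.14 to 3.21), and the interleukin 1 receptor antagonist Il1rn at 278 and 619.5 CPM, 2.23-fold higher (2.19 to 2.28).

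Epithelial lists that Ly6d and the uroplakins belong to held more higher than lower genes. These lists were also written with earlier results of these data known. Past 2-fold, 8.64% of all measured genes were higher and 6.19% lower, and nothing is read from the contrast of these shares. Of 27 stratified epithelium genes, 12 were measured. Past 2-fold, 6 were higher and 1 lower, and the median was 0.94. The desmosomal protein Perp was 40.6-fold higher (32.5 to 51.4), the cornified envelope enzyme Tgm1 24.6-fold (19.3 to 31.96) and Tgm3 17.6-fold (9.63 to 35.8), while the cornified envelope protein Sprr1a was at 161 and 744 CPM. Tgm3 was at 0.216 CPM in shControl and was measured through shGas6 alone. The gene past 2-fold downwards, named after its values were seen, was the basal keratin Krt14, at 19.2 and 7.95 CPM (2.41-fold lower, 2.15 to 2.71). Chosen in the same way, the basal cell regulator Trp63 was 1.52-fold lower (1.27 to 1.83) and Sprr1b 1.36-fold lower (1.15 to 1.61). Of 19 urothelial genes other than uroplakins, 14 were measured. Past 2-fold, 4 were higher and 1 lower, and the median was 0.53. Krt7 was 9.28-fold higher (7.66 to 11.3) and the epithelial transcription factor Klf5 was at 88.5 and 246 CPM, 2.79-fold higher (2.69 to 2.88), while the fatty acid binding protein Fabp4 was 24.2-fold lower (18.7 to 31.8). Trp63, also on this list, Ehf (1.74-fold, 1.70 to 1.78) and Krt20 (1.24-fold, 1.22 to 1.26) were lower too, and Snx31 had 0 counts in both libraries. Krt8, Krt18 and Krt19 are shared with the 10 epithelial check genes, whose median was 0.50. Whether the urothelial median is particular to urothelium was not tested.

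**Figure D4:**
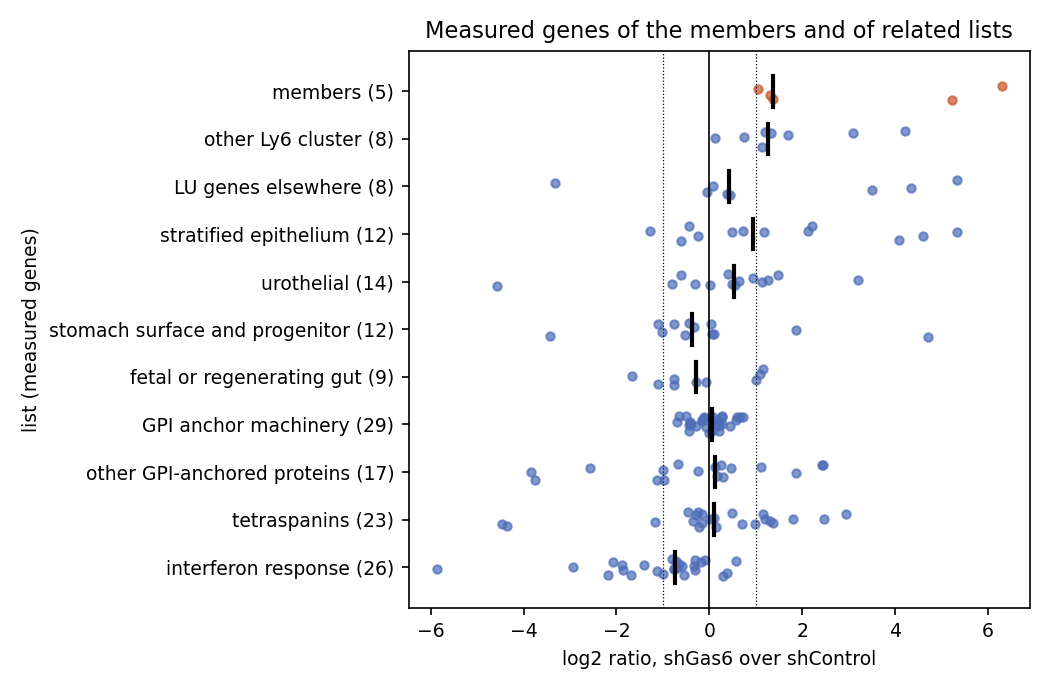
Log2 ratio of shGas6 over shControl of each measured gene (points) in the members and in 10 related lists, with the list median as a black bar and the number of measured genes in brackets. Genes with 0 counts in 1 library are drawn at their bound, dotted lines mark 2-fold, and the median of the interferon response list (-0.74) lies below that of all genes (-0.01) while those of the members and of the other Ly6 cluster genes lie above 1.

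Most markers of other cells that carry Ly6 proteins or uroplakins were scarce, but the mesothelial markers Msln and Pdpn were not. The 11 leukocyte markers summed to 8.77 CPM in shControl and 8.31 CPM in shGas6, with 3 and 4 of them at 0, and Tyrobp had 0 counts in both libraries. Of the 3 measured, Laptm5 was at 0.157 and 1.37 CPM, 8.72-fold higher (4.196 to 20.99), while Coro1a was at 2.30 and 2.01 CPM and Cd68 at 4.82 and 4.45 CPM, with a median of -0.12. The 10 endothelial markers summed to 17.2 and 15.7 CPM, with Kdr, Tek and Cldn5 at 0 in both. Within that list Vwf was at 1.49 and 0.174 CPM, Cdh5 at 11.8 and 3.73 CPM, Eng at 1.26 and 0.696 CPM and Esam at 1.93 and 10.5 CPM. Of these 4 measured genes 1 was higher and 2 lower past 2-fold, with a median of -1.25. The shares over all measured genes were 8.64% higher and 6.19% lower, and nothing is read from counts this small. The 9 fibroblast markers summed to 2.07 and 2.65 CPM, and Col1a1 alone was measured. Of 9 mesothelial markers, Wt1, Calb2, Muc16, Gpm6a and Rspo1 had 0 counts in both libraries, whereas Msln, which many carcinomas also make, was at 209 and 234 CPM and Pdpn at 128 and 61.0 CPM. The mesothelial list summed to 338 CPM in shControl and 295 CPM in shGas6. The 5 Ly6 members summed to 1455 and 3385 CPM, mostly from Ly6a, Ly6c1 and Ly6e, and the 4 uroplakin members to 0.374 and 12.7 CPM. The part of other cells in these values was not tested.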

How the data were processed

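Poly(A) RNA libraries of 2 YTN16 cultures (1 shControl, 1 shGas6) were made with a stranded kit, per the labels' protocols. Per the submitters' processing notes, Trimmomatic was used and the build was GRCm38 (mm10). No source used here names the aligner, the counter, its strand setting or the annotation release. Per the file headers, the authors deposited TPM and FPKM values beside read counts for each gene. Columns were assigned to samples by name. TMM factors from edgeR 4.0.16 (R 4.3.3) scaled the counts. A log2 ratio is that of the scaled counts plus a pseudocount of 0.5, shGas6 over shControl, while folds have no pseudocount. Intervals are exact (Clopper-Pearson) at 95%, from scipy 1.17.1. They cover counting error only, and PCR copies, which are not independent, can make them too narrow. For a gene at 0 in 1 library, a floor of 3 counts per library gave a lower bound.

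Neighbours were the measured genes within 500 kb by RefSeq coordinates of GRCm38.p6, which matched 45679 of 45777 genes by identifier. Sequence windows were compared in GENCODE M21 transcripts, on both strands, and coding sequences were aligned globally with Biopython 1.88. The members and the 16 lists were chosen with earlier results of these data known. The text names all members, every measured gene of the lists of other Ly6 cluster genes, LU genes elsewhere and uroplakins, up to 4 genes of each other list by absolute log2 ratio, the nearest measured gene on each side of a member, and Gas6. Genes named beyond this rule, such as Epcam, Krt14 and single markers with 0 counts, were picked after their values were seen. The ratio and its interval were tested on simulated data. Alternatives were upper quartile, total count and DESeq2 (1.42.0) scaling, thresholds of 4-fold and 1.5-fold, the interval beyond 2-fold, filters of 5 CPM and 1 count, a pseudocount of 5, deposited FPKM or TPM (pseudocount 0.1), windows of 200 and 1000 kb and, added after the data were seen, subtraction of each chromosome's median.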

Additional observations from a re-analysis of the deposited data

How the results depend on the processing

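No paired analysis was possible because each group has 1 library and no result comes from a test. The count of members at least 2-fold higher (5) was 4 with upper quartile scaling and 4 with the chromosome median subtracted (chosen after seeing the data), where Ly6a was at 0.997 and 0.78 on the log2 scale. It was 7 at a filter of 1 count, 2 at a threshold of 4-fold and 5 in the other 8 settings. No member was 2-fold lower in any of the 12 settings. The genome-wide counts of 1155 higher and 828 lower genes became 422 and 342 for 4-fold, 2145 and 1679 for 1.5-fold, 729 and 466 with a 5 CPM filter, and 4202 and 3339 with a filter of 1 count, as the looser or stricter rule makes them. Of 56 values of member log2 ratios, 39 lay within the gene's counting interval and 17 moved further, none with a change of sign. Psca (6.62) ranged from 3.42 to 6.63, Upk3b (6.18) from 2.02 to 6.36 and Upk1b (6.29) from 5.20 to 6.32, values that depend on the pseudocount. Of 114 list medians, 112 stayed within the tolerance, but some of these are wide: with a filter of 1 count the LU genes elsewhere (0.41) were at 2.18 and the stratified list (0.94) at 1.42, and with 5 CPM the stratified list was at 1.65 and the other Ly6 cluster genes (1.27) at 2.21. The leukocyte median (-0.12) was -0.84 with a filter of 1 count. The medians around Ly6a and Ly6c1 (1.20) were 0.69 and 0.72 within 1000 kb. The median of the other GPI-anchored proteins (0.12) was -0.0638 at a filter of 1 count, and that around Upk1b (-0.04) was 0.0016 within 1000 kb and 2.56 within 200 kb, and the cause was not tested. At 3 counts the depth limits levels to about 0.06 CPM, and Psca, Upk2 and Upk3b had 0 counts in shControl, which sets an upper limit only.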

Other observations

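The machinery that attaches GPI anchors, on which most Ly6 proteins depend, was nearly level between the libraries. All 29 genes of that list were measured and none differed by 2-fold, with a median log2 ratio of 0.05. By that much, 8.64% of all measured genes were higher and 6.19% lower. The widest differences were Pgap3, which remodels the anchor on the protein, at 5.94 and 9.86 CPM (1.66-fold higher, 1.44 to 1.92), and Pigc, which acts at the start of anchor synthesis, at 14.3 and 8.76 CPM (1.63-fold lower, 1.45 to 1.83). Pigh was 1.58-fold higher (1.42 to 1.77) and Pign 1.57-fold lower.

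GPI-anchored surface proteins without an LU domain differed in both directions. Past 2-fold, 4 of 17 measured genes were higher and 4 lower, and the median was 0.12. The shares over all measured genes were 8.64% higher and 6.19% lower. Efna2 and Efna3, among the higher genes, were measured through shGas6 alone, and Vnn3, among the lower, through shControl alone. The lists were chosen with earlier results known, so nothing is read from these shares. Alkaline phosphatase (Alpl) was 14.4-fold lower (11.8 to 17.6), and the pantetheinases Vnn3 and Vnn1 were 14.0-fold (7.41 to 29.9) and 5.92-fold lower (5.70 to 6.15). Cd55, an inhibitor of complement, was at 3.62 and 19.8 CPM, 5.47-fold higher (4.67 to 6.44). Tetraspanins other than uroplakins also differed in both directions, with 3 of 23 lower and 7 higher past 2-fold (median 0.09), beside the same shares over all measured genes. Cd37 and Tspan17, among the higher genes, were measured through shGas6 alone. Tspan6 and Tspan12, among the lower, were measured through shControl alone. Tspan12 was 21.0-fold lower (14.3 to 32.2), Tspan6 had 65 and 0 counts (at least 22.0-fold lower), and Tspan17 was 7.79-fold higher (5.60 to 11.1).

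Among stomach surface, neck and progenitor genes, a setting in which Psca is made, 2 of 12 measured genes were higher past 2-fold and 3 lower, and the median was -0.38. The shares over all measured genes were 8.64% higher and 6.19% lower. Bhlha15, at 0.452 and 1.68 CPM, was measured through shGas6 alone, and nothing is read from the contrast of these shares. The water channel Aqp5 was at 7.16 and 186 CPM, 26.0-fold higher (23.4 to 28.99), the secretory cell factor Bhlha15 was 3.72-fold higher (2.33 to 6.17), the trefoil peptide Tff2 10.9-fold lower (8.78 to 13.6) and Sox9 2.15-fold lower (1.82 to 2.55).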
